A study of Mus musculus with 44 samples.

Results

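The genes described here are 35 genes taken by symbol from a list of oocyte genes. They include the zona pellucida genes, the maternal-effect genes that the early embryo depends on, and genes of the germ line and of meiosis. The list was drawn up with earlier results of these data known. Some of the genes were low even in control libraries, and some kept a level in libraries that lacked most of the others. Whether other cells of the ovary also transcribe them was not tested. All 35 were found by symbol in both deposited tables, among 22674 genes in the maturation table and 18274 in the ovulation table, so no member was absent from either. The libraries came from ovarian follicles of the outbred mouse stock CD-1, with the genotype given as WT for every sample. PFNA (perfluorononanoic acid, a fluorinated surfactant) had been given in one of 2 windows, the maturation of the follicle or its ovulation, which was induced with hCG (human chorionic gonadotropin, a hormone that acts on the luteinizing hormone receptor). The maturation window had 11 control libraries, treated with DMSO (the solvent), and 10 PFNA libraries. The ovulation window had 12 control libraries, treated with hCG, and 11 libraries treated with hCG and PFNA, so both of its groups had received the hormone. The dose, the length of exposure, the age of the mice and the number of follicles or animals behind each library are not given in the sources used here. Nothing in the labels says that libraries of a group came from separate animals or cultures, so the p-values measure the spread between these libraries, which may be technical.

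An ovarian follicle holds a single oocyte within layers of granulosa and theca cells, so oocyte transcripts are a small share of the RNA of a whole follicle. The growing oocyte stores maternal mRNA, and as it resumes meiosis it stops transcription, translates some of the stored mRNAs and degrades others until the embryo's own genome takes over. Translation of stored mRNAs is switched on in the cytoplasm by lengthening their poly-A tails, which depends on cytoplasmic polyadenylation elements, short U-rich motifs near the 3′ end that CPEB1, itself among the 35, binds. The libraries were made, per the labels, from RNA captured by its poly-A tail.

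Transcript ends were searched for that element after the levels had been seen, since some of the genes kept a level in libraries where the rest were near 0. It was searched for as TTTTAT or TTTTAAT on the transcript strand in the last 150 bases of the 3′ UTR, with the transcripts of GENCODE release M21 on mouse build GRCm38. Of 33 members with a 3′ UTR of at least 50 bases, 10 held it (30.3%), against 22.2% of 20605 genes. The sites of 8 of the 10 are shown 5′ to 3′ with the motif in capitals, first 5 whose transcripts were still present in maturation PFNA replicate 3, then 3 whose transcripts were nearly absent there.
Bcl2l10: ccttaatacatTTTTAATaacttcaaattc
Tcl1: gaatgtgtgggaTTTTATgtggttctattt
Rfpl4: tgctttcctTTTTATttgctataatattag
Oog1: atagaagcaccaTTTTATgagactggccca
Btg4: agataaatccctTTTTATgtctttttaaaa
H1f8: cgattctgaagcTTTTATtgtctaataagc
Nlrp4f: tgctgttttgtgTTTTATattaaagaatag
Oosp1: gctgtccctgcTTTTAATtgtataaaatct
The motif started 42 bases before the end of the transcript in Bcl2l10, 65 in Tcl1, 141 in Rfpl4, 60 in Oog1 and 67 in Btg4. A poly-A signal (AATAAA or ATTAAA) was found in the last 50 bases of Bcl2l10, Tcl1 and Oog1, but not of Rfpl4 or Btg4. Bcl2l10 lies at chr9:75347758-75351649 on the plus strand, Tcl1 at chr12:105216750-105222793 on the minus strand, Rfpl4 at chr7:5109787-5116950 on the minus strand, Oog1 at chr12:87602688-87608850 on the plus strand and Btg4 at chr9:51060901-51119875 on the plus strand (GRCm38, positions of the maturation table). The other 2 members with the motif were Ddx4 and Sycp3.

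Promoters of the group were searched as well, since FIGLA, an oocyte factor among the 35, is known to act on the zona genes through E-boxes (CANNTG). RefSeq promoters on GRCm38.p6, from 250 bases before the start site to 50 after it, were matched for 28 members with 32 start sites. None was matched for Zp1, Zp2, Nlrp14, Dppa3, Npm2, Mos or Bcl2l10, so Zp3 was the only zona pellucida gene covered. An E-box on either strand was in 28 of the 32 (87.5%), against 72.3% of 32851 promoters. TAATTG or TAATTA, letters of the kind that homeodomain factors such as NOBOX bind, was in 4 of the 32 (12.5%), against 12.4% of all promoters, and TATAAA was in 12.5% against 13.6%. A match is a description of the letters and not evidence that a factor bound there. The promoters of Zp3, a zona gene, and of Oosp1, which codes for a secreted oocyte protein, are shown with every E-box in capitals, 4 and 5 of them.
Zp3: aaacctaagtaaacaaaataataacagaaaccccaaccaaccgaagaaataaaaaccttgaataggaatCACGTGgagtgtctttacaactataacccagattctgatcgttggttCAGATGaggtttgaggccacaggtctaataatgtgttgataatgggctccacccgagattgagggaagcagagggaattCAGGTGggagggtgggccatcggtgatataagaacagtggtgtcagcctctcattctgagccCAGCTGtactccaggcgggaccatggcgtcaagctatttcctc
Oosp1: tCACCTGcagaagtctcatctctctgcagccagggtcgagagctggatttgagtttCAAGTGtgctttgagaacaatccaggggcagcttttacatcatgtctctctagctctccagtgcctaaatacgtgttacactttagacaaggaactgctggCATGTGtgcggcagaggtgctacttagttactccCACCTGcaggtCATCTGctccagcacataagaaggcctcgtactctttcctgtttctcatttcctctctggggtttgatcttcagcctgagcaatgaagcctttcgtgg
The Zp3 window lies at chr5:135979855-135980154 on the plus strand and overlaps the 5′ end of the gene, which spans chr5:135980099-135988624. The Oosp1 window lies at chr19:11691002-11691301 on the minus strand and overlaps the 5′ end of the gene, which spans chr19:11667460-11691150.

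Values of the maturation window are TPM, which sum to 1000000 in every library, so their sequencing depth is unknown, and those of the ovulation window are CPM, the deposited counts scaled to library size. Library totals of the ovulation window ran from 11961105 to 16045751 counts in the controls and from 10600931 to 19511531 with PFNA. The labels give no batch. Several libraries stood apart in the oocyte genes. In the maturation window PFNA replicates 1 and 2 fell within the controls on the first principal component of all genes (scores of -18.1 and -10.6, controls -37.7 to -7.6, the other 8 PFNA libraries 33.4 to 48.8). PFNA replicate 10 of that window had 18 of the 35 genes above every control. In the ovulation window PFNA replicate 5 had 20 of the 35 genes at 0 counts and 28 below every control, and controls 2 and 7 were high in many of the genes. Results are given with and without these libraries where that changes them.

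In the maturation controls the most abundant members, per transcript length, were Bcl2l10, an apoptosis regulator of the Bcl-2 family (43.4 ± 12.3 TPM, SD, n = 11), and Uchl1, a deubiquitinase of germ cells and neurons (42.9 ± 9.96). Tle6 (37.7 ± 5.04), the oocyte linker histone H1f8 (35.1 ± 9.83), Ooep (32.9 ± 7.68), the kinase Mos (31.0 ± 7.38), Zar1 (30.4 ± 4.30) and Khdc3 (29.2 ± 7) followed. Neighbours in this order did not differ beyond their SDs. At the bottom were the meiotic chromosome protein Sycp3 (0.314 ± 0.249 TPM) and the germ-cell RNA helicase Ddx4 (0.101 ± 0.0830 TPM). The 35 genes together made up 0.0342% to 0.0549% of the TPM of each control library.

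**Figure D1:**
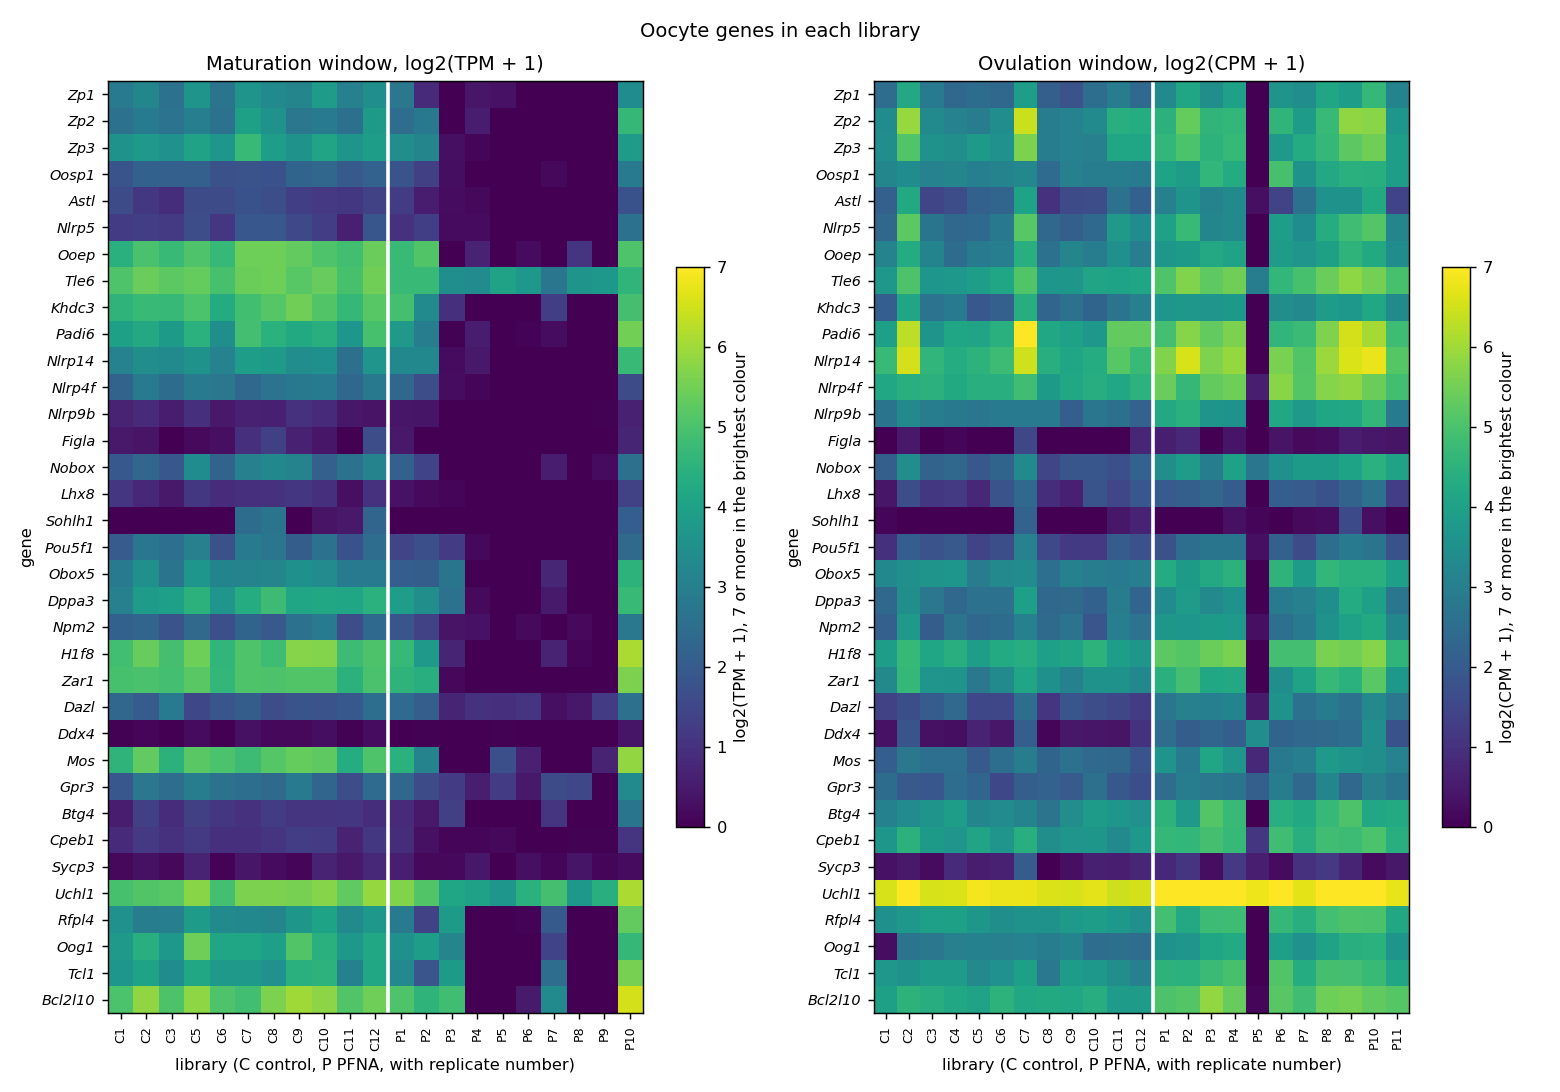
Level of the 35 genes (rows, in order of role) in every library (columns, C control and P PFNA with the replicate number), as log2(TPM + 1) in the maturation window on the left and log2(CPM + 1) in the ovulation window on the right, with values of 7 or more in the brightest colour. In the maturation window PFNA libraries 4 to 9 are dark for most genes while Tle6 and Uchl1 remain visible. In the ovulation window PFNA library 5 is dark for most genes but not for Uchl1 (113 CPM), Ddx4 (9.79 CPM), Tle6 (6.79 CPM) or Nobox (5.71 CPM).

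PFNA in the maturation window went with much lower levels of oocyte transcripts. Of the 28 members with a mean of at least 1 TPM over the window's libraries, 27 were called lower by limma on log2(TPM + 1) (Benjamini-Hochberg adjusted p under 0.05 over all genes tested), none higher, and Btg4 was not called. Over all 13712 genes tested, 16.1% were called lower and 13.3% higher. The median log2 fold change of the 28 was -2.02, or -3.92 with a pseudocount of 0.1 in place of 1, and that of all genes tested was 0.02. For 5 of the 28 (Astl, Nlrp5, Nlrp4f, Pou5f1 and Btg4) the PFNA mean was under 1 TPM, so they passed the filter with the help of their control levels. These counts therefore describe the genes that passed. Btg4 was close to the filter (control mean 1.09 TPM, PFNA mean 0.934 TPM) and no longer passed it with PFNA replicate 10 left out. Without the filter, all 35 could be tested and 29 were called lower. Dazl was then not called (adjusted p = 0.053), and of the 7 added genes Cpeb1 (log2 fold change -0.77), Lhx8 (-0.69) and Nlrp9b (-0.53) were called lower. In RNA of whole follicles, fewer oocytes and less of these mRNAs per oocyte cannot be told apart.

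The zona pellucida is the glycoprotein coat that the oocyte secretes around itself, and all 5 genes of this role were called lower in the maturation window. Zp3, whose product carries sperm-binding activity, was 10.7 TPM in the lowest, 12.5 in the median and 25.8 in the highest control. With PFNA it was 10.1 TPM in replicate 1, 8.05 in replicate 2, 0.23 in replicate 3, 0.0632 in replicate 4, listed at 0 in replicates 5 to 9, and 13.4 in replicate 10. The PFNA libraries thus lay near the control level or near 0, and 9 of 10 were below every control (log2 fold change -2.77 ± 0.49, SE, adjusted p = 2.3e-04). Zp1, the crosslinker of zona filaments, was 5.25, 8.20 and 13.3 TPM (lowest, median, highest) in controls and 0, 0.129 and 9.60 with PFNA (-2.46 ± 0.38, adjusted p = 6.6e-05). Zp2 was 4.94, 6.22 and 14.8 TPM in controls and 0, 0 and 24.1 with PFNA (-1.99 ± 0.50, adjusted p = 0.0049). The highest value of Zp2 in the window was in PFNA replicate 10, and 8 of 10 PFNA libraries were below every control. Astl, the protease ovastacin that cleaves ZP2 after fertilization, and the secreted protein gene Oosp1 had log2 fold changes of -0.99 ± 0.21 and -1.39 ± 0.30.

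The subcortical maternal complex, a protein assembly under the egg membrane that embryos need for their first divisions, was likewise called lower in all 5 genes. Ooep was 20.9, 32.5 and 43.0 TPM in controls and 0, 0.388 and 33.1 with PFNA (log2 fold change -3.36 ± 0.66, adjusted p = 6.4e-04). Khdc3 was 18.8, 28.2 and 43.3 TPM in controls and 0, 0.471 and 29.7 with PFNA (-3.34 ± 0.60, adjusted p = 2.7e-04). Padi6, a peptidylarginine deiminase homologue of the oocyte's cytoplasmic lattices, was 10.2, 18.2 and 29.9 TPM in controls and 0, 0.115 and 44.5 with PFNA (-2.93 ± 0.59, adjusted p = 8.2e-04). In these 3 genes replicates 1, 2 and 10 carried nearly all of the PFNA signal. Tle6 had another distribution. It was 30 to 43.7 TPM in the controls and 25.6, 25.4, 10.2, 9.48, 15.5, 12.2, 5.67, 11.4, 12.4 and 23.1 TPM in PFNA replicates 1 to 10. No PFNA library reached a control and none was near 0 (-1.38 ± 0.19, adjusted p = 2.8e-05). Tle6 was the 1 member of the 28 for which every PFNA library was below every control, a separation that 0.788% of all genes tested had in that direction. Nlrp5, a low gene whose change the pseudocount of 1 understates, was 0.524, 1.48 and 2.71 TPM in controls and 0, 0.0721 and 5.16 with PFNA (-0.89 ± 0.28, adjusted p = 0.022). Of the other NLRP genes, Nlrp14 (-2.22 ± 0.53) and Nlrp4f (-2.05 ± 0.27) were called lower, and Nlrp9b was under the filter with 0.299 to 1.01 TPM in controls.

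**Figure D2:**
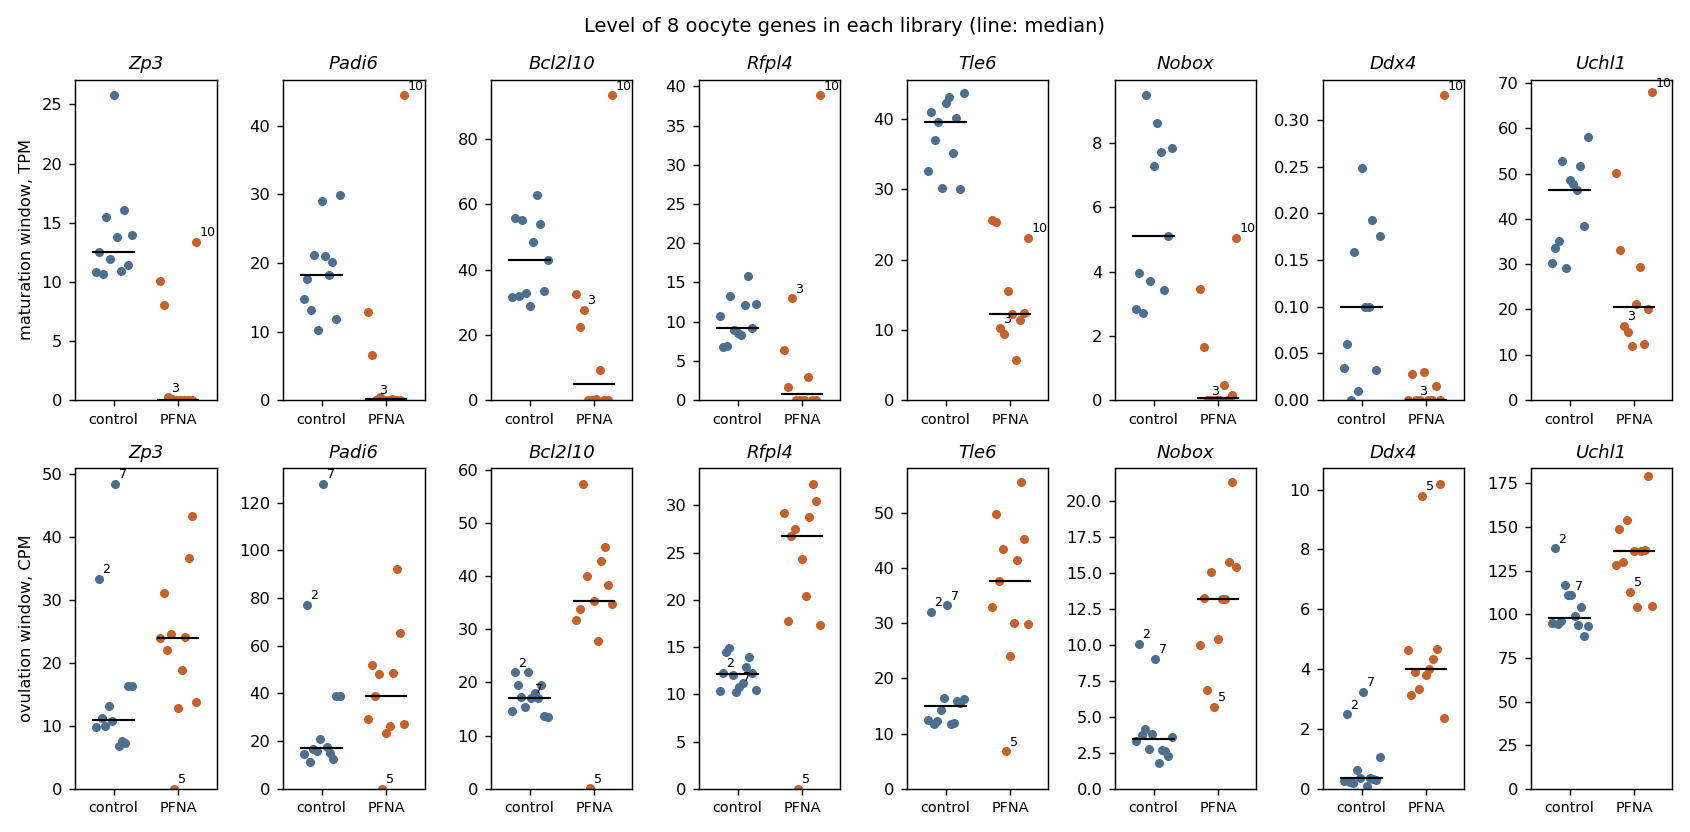
Level in every library of 8 of the genes, TPM in the maturation window (top row) and CPM in the ovulation window (bottom row), each point a library and each line the group's median, with the replicate numbers of the libraries that stood apart. Tle6 and Uchl1 keep a level above 0 in every maturation PFNA library where Zp3, Padi6 and Bcl2l10 reach 0, and in the ovulation window the PFNA points of Rfpl4 and Bcl2l10 lie above all controls except for replicate 5.

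Among the transcription regulators, Nobox, a homeobox factor of follicle formation, was 2.70, 5.11 and 9.49 TPM in controls and 0, 0.0784 and 5.05 with PFNA (log2 fold change -1.95 ± 0.33, adjusted p = 1.7e-04). Pou5f1, the pluripotency factor Oct4, which the oocyte also carries, changed by -1.73 ± 0.30, and the homeobox gene Obox5 by -1.96 ± 0.46, both called lower. Figla, Sohlh1 and Lhx8, which act early in oocyte growth, were under the filter. Figla was 0 to 2.15 TPM in controls and listed at 0 in 8 of 10 PFNA libraries. Sohlh1 was listed at 0 in 9 of 10 PFNA libraries, and in the controls it was 4.55, 5.44 and 3.90 TPM in replicates 7, 8 and 12 and at most 0.406 in the other 8. These same 3 controls held the 3 highest control values of Figla and of Zp2.

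All 4 maternal chromatin and early embryo genes were called lower. H1f8 was 23.5, 31.9 and 52.0 TPM in controls and 0, 0.344 and 67.9 with PFNA. Its fold change on log2(TPM + 1) was the largest of the group (-3.52 ± 0.67, adjusted p = 5.0e-04). On that scale a gene at a low level in controls cannot show as large a fall. Zar1, an RNA-binding protein needed at the transition from oocyte to embryo, was 21.6, 30.9 and 36.2 TPM in controls and 0, 0 and 48.3 with PFNA (-3.49 ± 0.67, adjusted p = 5.7e-04). Dppa3, also named Stella, which guards DNA methylation in the zygote, changed by -2.56 ± 0.56, and the histone chaperone gene Npm2 by -1.49 ± 0.30.

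The genes of meiosis and translation were the least uniform. Mos, which holds the egg in metaphase of the second meiosis, was 19.3, 32.4 and 40.0 TPM in controls and 0, 0.605 and 57.1 with PFNA (-3.31 ± 0.61, adjusted p = 3.8e-04). Gpr3, the receptor that keeps oocytes in meiotic arrest, was 2.16, 4.65 and 6.61 TPM in controls and 0, 1.6 and 9.28 with PFNA (-1.05 ± 0.30, adjusted p = 0.012). It was listed at 0 in a single PFNA library. Dazl, an RNA-binding activator of translation, was 1.85, 2.79 and 6.22 TPM in controls and 0.227, 1.03 and 5.01 with PFNA, above 0 in every library (-0.75 ± 0.26, adjusted p = 0.037). Leaving out a single library removed its call in 11 of 21 cases. Btg4, an adaptor that brings the deadenylase to maternal mRNAs, was 0.448, 1.11 and 1.52 TPM in controls and 0, 0.191 and 5.55 with PFNA (-0.41 ± 0.27, adjusted p = 0.27). Btg4 was listed at 0 in 5 PFNA libraries and above every control in 2.

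The last role, other oocyte-enriched genes, was called lower in 5 of 5. Bcl2l10 was 28.7, 43.0 and 63.0 TPM in controls, and with PFNA it was 32.5, 22.4, 27.7, 0, 0, 0.428, 9.28, 0, 0 and 93.5 TPM in replicates 1 to 10 (-2.93 ± 0.76, adjusted p = 0.0059). Rfpl4, a RING-finger-like gene of the oocyte, changed by -1.91 ± 0.55 and Tcl1, a coactivator of Akt kinase, by -2.18 ± 0.59. Oog1 changed by -2.61 ± 0.57, but it belongs to a family of near-identical copies, and its estimated counts were not whole in 22 of the 23 ovulation libraries, so reads may be split between copies. Uchl1 was 29.1, 46.4 and 58.1 TPM in controls and 11.9, 20.6 and 67.9 with PFNA, never near 0 (-0.80 ± 0.25, adjusted p = 0.022). An annotated antisense transcript overlaps 408 bases of Uchl1 and another overlaps 1475 bases of Pou5f1, and the use of strand in counting is not given in the sources used here.

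Read by library, the level of the 35 genes differed widely within the maturation PFNA group. The median gene, as a percentage of its own control median, stood at 72.6% in PFNA replicate 1, 42.0% in replicate 2, 8.17% in replicate 3, 0.666% in replicate 4, 0.713% in replicate 7 and 162% in replicate 10. It was 0 in replicates 5, 6, 8 and 9. In control libraries the same quantity ran from 76.4% to 129%. The summed share of the 35 genes was 0.0346%, 0.0243% and 0.0108% of the library in PFNA replicates 1 to 3, from 0.00277% to 0.00608% in replicates 4 to 9, and 0.0753% in replicate 10. Replicate 1 alone was inside the control range of that sum. Uchl1 made up a large part of what was left in replicates 4 to 9. Without Uchl1 the sum was 303 to 496 TPM in controls and 295 TPM in PFNA replicate 1. In PFNA replicates 4 to 9 it was then 14.6 to 31.5 TPM, of which Tle6 held 5.67 to 15.5 TPM. With PFNA replicates 1 and 2 left out, a choice made after seeing the data, 27 of 28 genes were again called lower with a median of -2.39. Without replicate 10, 27 of the 27 genes tested were called lower, also with a median of -2.39.

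In PFNA replicate 3 the genes did not fall together. Rfpl4 stood at 141% of its control median there, Btg4 at 138%, Tcl1 at 102%, Obox5 at 69.8%, Bcl2l10 at 64.5%, Oog1 at 48.3% and Dppa3 at 30.9%. In that library Ooep and Mos were listed at 0, Zp3 was at 1.83% of its control median and H1f8 at 2.03%. In replicate 7 Btg4 stood at 97.2%, Uchl1 at 63.2%, Gpr3 at 43.5%, Tcl1 at 36%, Rfpl4 at 31.8% and Bcl2l10 at 21.6%. Oog1 (9.94%), Obox5 (8.37%) and Dppa3 (2.49%) were low there. Split by sequence, the 10 genes with the polyadenylation motif shown above had a median of 47.9% of control in replicate 3 and 15.8% in replicate 7, and the 22 without it 8.17% and 0%. Ddx4 and Sycp3, low genes with control medians of 0.1 and 0.241 TPM, are among the 10. Sohlh1, whose control median was 0, was left out. The motif did not sort the genes fully. Obox5 and Dppa3 lack it and were present in replicate 3, while Oosp1 (6.02%), Nlrp4f (2.89%) and H1f8 (2.03%) hold it and were nearly absent. In PFNA replicates 1 and 2 the medians with and without the motif were 70.5% and 73.7%, and 37.9% and 46.3%. The libraries and the motif were chosen with these values in view, so the split is a description, and whether the motif bears on the levels was not tested.

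**Figure D3:**
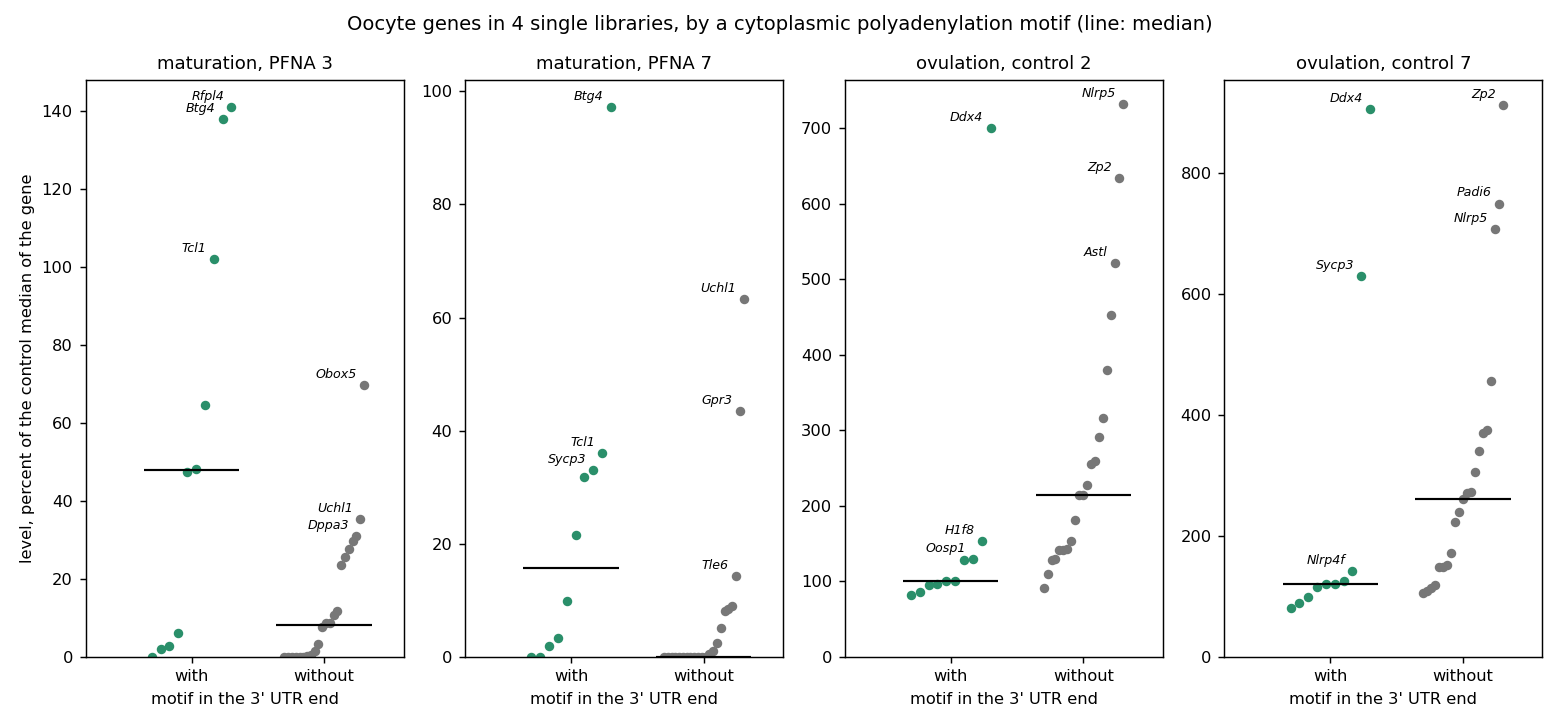
Level of each gene as a percentage of its control median (vertical axis) in 4 single libraries, split by a cytoplasmic polyadenylation motif in the last 150 bases of the 3′ UTR, each point a gene and each line the median. In maturation PFNA replicate 3 the median is 47.9% with the motif and 8.17% without it, and in ovulation control 7 it is 121% with the motif and 261% without it, with points of both kinds overlapping in every panel.

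PFNA in the ovulation window went with higher levels of oocyte transcripts. Of the 32 members that passed the count filter, 20 were called higher by edgeR's quasi-likelihood test (Benjamini-Hochberg adjusted p under 0.05 over all genes tested), none lower, and 12 were not called. All 32 estimates were above 0, with a median log2 fold change of 0.92 against 0.04 for all 13441 genes tested. In this window 38% of all genes tested were called higher and 35.2% lower. No member had every PFNA library above every control, which 11.9% of all genes tested had, and PFNA replicate 5 accounted for this in the 7 genes where the other 10 libraries all exceeded every control (Oosp1, Obox5, Dazl, Rfpl4, Oog1, Tcl1 and Bcl2l10). With limma on log2(CPM + 1) in place of edgeR, 9 of the 32 were called higher. With replicate 5 left out the count was 29 by limma and 27 by edgeR. The edgeR count then added Dppa3, Khdc3, Lhx8, Nlrp14, Ooep, Pou5f1 and Zar1. The shares of all genes called above are those of the edgeR fit with all libraries. Shares under the other fits are not given here, so these counts have no share of all genes beside them.

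Genes of meiosis and translation were called higher in 6 of 6 tested by edgeR, and in 4 of 6 (Dazl, Ddx4, Gpr3 and Mos) by limma on log2(CPM + 1). Ddx4 was 0.0800, 0.357 and 3.24 CPM in controls (lowest, median, highest) and 2.37, 4.01 and 10.2 CPM with PFNA. It had the largest fold change of the group (log2 2.60 ± 0.46, adjusted p = 1.6e-05), and 9 of 11 PFNA libraries exceeded every control. Replicate 5, which had 20 of the 35 genes at 0 counts, was among them with 9.79 CPM of Ddx4. Dazl was 1.12, 1.98 and 4.75 CPM in controls and 0.429, 6.39 and 10.8 with PFNA (1.44 ± 0.31, adjusted p = 1.7e-04), with 10 of 11 above every control. Mos was 2.55, 4.55 and 6.80 CPM in controls and 0.714, 10.2 and 16.4 with PFNA (1.05 ± 0.28, adjusted p = 0.0014). Gpr3 (0.74 ± 0.18), Btg4 (1.04 ± 0.36) and Cpeb1 (0.81 ± 0.27) were also called higher. Sycp3 was at most 3.10 CPM in any library and was not tested.

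The other oocyte-enriched genes were called higher in 5 of 5 by edgeR, and in 2 of 5 (Oog1 and Uchl1) by limma on log2(CPM + 1). Bcl2l10 was 13.5, 17.2 and 21.9 CPM in controls and 0.0714, 35.3 and 57.4 with PFNA (1.01 ± 0.33, adjusted p = 0.0089). Tcl1 was 6, 11.6 and 14.7 CPM in controls and 0, 25.9 and 33 with PFNA (1.04 ± 0.35, adjusted p = 0.010). Rfpl4 was 10.2, 12.2 and 14.9 CPM in controls and 0, 26.8 and 32.3 with PFNA (0.93 ± 0.34, adjusted p = 0.016). For all 3, PFNA replicate 5 was under every control and the other 10 PFNA libraries were over every control. Oog1 changed by 1.23 ± 0.41. Uchl1, with the smallest change of the group that was called, was 87.5, 97.6 and 138 CPM in controls and 104, 136 and 179 with PFNA (0.37 ± 0.09, adjusted p = 4.1e-04).

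Of the transcription regulators, Nobox was 1.76, 3.46 and 10.1 CPM in controls and 5.71, 13.2 and 21.3 with PFNA (1.62 ± 0.27, adjusted p = 6.8e-06), with 8 of 11 PFNA libraries above every control. Obox5 was also called higher (1.04 ± 0.35), and Lhx8 (0.76 ± 0.42, adjusted p = 0.10) and Pou5f1 (0.61 ± 0.36, adjusted p = 0.13) were not. Figla and Sohlh1 were not tested, at no more than 1.85 and 3.57 CPM in any library. Of the maternal chromatin and embryo genes, H1f8 (1.03 ± 0.35) and Npm2 (0.92 ± 0.35) were called higher, while Dppa3 (0.68 ± 0.38) and Zar1 (0.73 ± 0.38) were not.

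Of the zona and egg coat genes 2 of 5 were called higher, and of the subcortical maternal complex 1 of 5, or 3 of 5 with PFNA replicate 5 left out. Over all genes tested, 38% were called higher in this window, so the counts with all libraries do not set either role apart. Zp3 was 6.80, 10.9 and 48.5 CPM in controls and 0, 23.9 and 43.3 with PFNA (0.52 ± 0.44, adjusted p = 0.29). Zp2 was 6.66, 9.37 and 85.5 CPM in controls and 0, 22.8 and 56.2 with PFNA (0.33 ± 0.54, adjusted p = 0.58). Padi6 was 11.3, 17 and 128 CPM in controls and 0, 38.8 and 92.4 with PFNA (0.28 ± 0.50, adjusted p = 0.63). In all 3 the PFNA median was above the control median, and the highest library of all was control 7. Oosp1 was called higher (1.19 ± 0.35, adjusted p = 0.0037), and Zp1 was called at the threshold (0.93 ± 0.42, adjusted p = 0.05 as rounded), a call that 22 of its 29 alternative fits lost. Tle6 was 11.7, 15.0 and 33.3 CPM in controls and 6.79, 37.6 and 55.6 with PFNA (1.08 ± 0.25, adjusted p = 4.1e-04). Ooep (0.56 ± 0.38), Khdc3 (0.66 ± 0.42), Nlrp5 (0.52 ± 0.53) and Astl (0.56 ± 0.51) were not called. Of the other NLRP genes, Nlrp9b (1.27 ± 0.36) and Nlrp4f (0.95 ± 0.31) were called higher and Nlrp14 (0.74 ± 0.45) was not.

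Controls 2 and 7 of the ovulation window differed from the other 10 controls in part of the genes. Padi6 was 77.2 CPM in control 2 and 128 in control 7, and at most 39.1 in the others. Nlrp5 was 36.4 and 35.1 CPM there and at most 12.8 elsewhere, and Zp2 was 59.4 and 85.5 CPM there and at most 20.5 elsewhere. Rfpl4, at 12.3 and 10.8 CPM, and Bcl2l10, at 21.9 and 17 CPM, were within the other controls or level with their highest. The genes with the polyadenylation motif had a median of 101% of the control median in control 2 and 121% in control 7, and those without it 215% and 261%. In the other 10 controls the medians ran from 63.4% to 115% with the motif and from 82.1% to 109% without it. Ddx4 holds the motif and was high in both (700% and 905%). Figla and Sohlh1, whose control medians were 0 CPM, were left out of these medians. Without control 7, Dppa3, Khdc3, Lhx8 and Pou5f1 were also called higher, and without control 2, Nlrp14 and Zar1 were.

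PFNA replicate 5 of the ovulation window lacked transcripts of most of the 35 genes but not of all. At its depth 3 counts, the most that a count of 0 allows, equal 0.214 CPM. Zp1, Zp2, Zp3, Padi6, Ooep, H1f8, Zar1, Rfpl4 and Tcl1 were at 0 counts, and Bcl2l10 had 1. Ddx4 had 137 counts in this library (9.79 CPM, above every control), Nobox 80 counts (5.71 CPM), Tle6 95 counts (6.79 CPM), Gpr3 47 counts (3.36 CPM) and Uchl1 1584 counts (113 CPM). Uchl1 accounted for 113 of the 143 CPM that the 35 genes summed to. Uchl1 and Tle6 were also above 0 in all 10 maturation PFNA libraries, and Gpr3 in 9, while Ddx4 was listed at 0 in 6 of them and Nobox in 5. Which cells these transcripts came from was not tested.

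**Figure D4:**
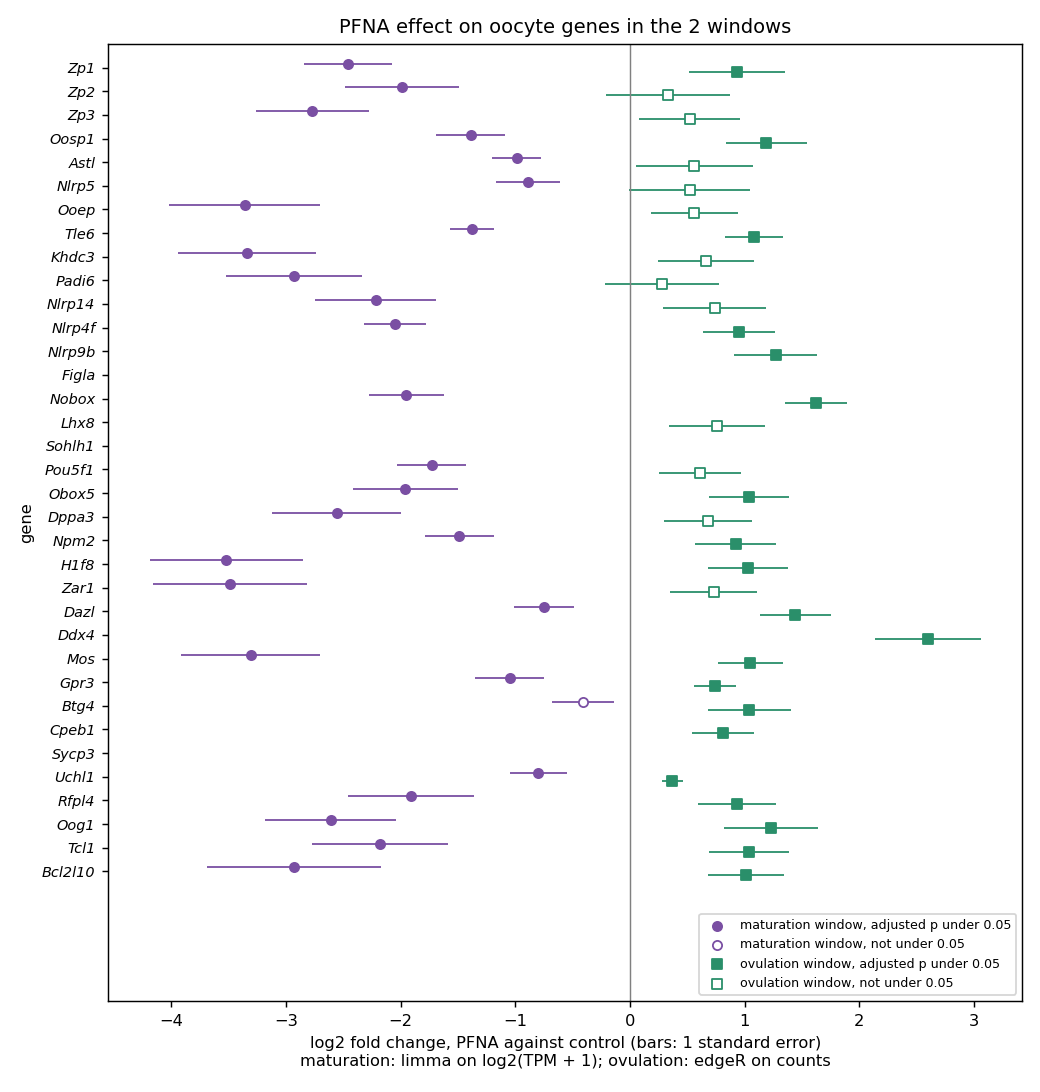
Log2 fold change of PFNA against control for each gene, with bars of 1 standard error, in the maturation window (circles, limma on log2(TPM + 1)) and the ovulation window (squares, edgeR on counts), filled where the adjusted p was under 0.05. Every circle is left of 0, down to -3.52 for H1f8, and every square is right of 0, up to 2.60 for Ddx4. Genes with no circle or no square were not tested in that window.

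The PFNA effect differed between the windows in each gene that could be compared. The difference was tested gene by gene by subtracting the maturation effect, on log2(TPM + 1), from the ovulation effect, on log2(CPM + 1), each against its own controls. It was called above 0 in 28 of 28 genes tested, with a median of 2.67 and a range from 1.08 (Btg4) to 4.15 (H1f8), while 32% of all 11215 genes tested in both windows were called above 0 and 35.6% below. The difference was 3.14 ± 0.67 for Zp3 (adjusted p = 7.3e-05), 3.92 ± 0.71 for Khdc3, 4.07 ± 0.67 for Mos, 3.43 ± 0.40 for Nobox and 1.16 ± 0.27 for Uchl1. It was called in the same number of genes with maturation PFNA replicates 1 and 2, or with ovulation PFNA replicate 5, left out. Without maturation PFNA replicate 10 it was called in 27 of 27.

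A second list held 50 oocyte genes outside the 35, 48 of them in both tables. It was also drawn up with earlier results of these data known, so it is no independent evidence of a direction. In the maturation window 15 of 20 tested were called lower and 1 higher, with a median of -1.28. Over all genes tested there, 16.1% were called lower and 13.3% higher. In the ovulation window 32 of 39 were called higher and none lower, with a median of 1.04. Over all genes tested in that window, 38% were called higher and 35.2% lower. Gdf9, a growth factor through which the oocyte acts on granulosa cells, was 32.8, 40.7 and 49.8 TPM in maturation controls and 0.180, 0.801 and 93.8 with PFNA (log2 fold change -3.31 ± 0.69, adjusted p = 0.0011). Its partner Bmp15 was 20.2, 29.1 and 39.0 TPM in those controls and 0, 0.0625 and 111 with PFNA (-3.17 ± 0.77, adjusted p = 0.0038). In the ovulation window Gdf9 (1.18 ± 0.29) and Bmp15 (1.24 ± 0.34) were called higher, and PFNA replicate 5 had 7.79 CPM of Gdf9, against 17.3 CPM in the lowest control, and 0.357 CPM of Bmp15. Ybx2, an oocyte RNA-binding protein (-1.80 ± 0.26), and Oas1e (-2.36 ± 0.43) fell in the maturation window, while Rnf114, a ubiquitin ligase that is not limited to oocytes, rose (0.18 ± 0.06, adjusted p = 0.032). In the ovulation window Taf4b (0.99 ± 0.10), Fmn2 (1.32 ± 0.15) and Pabpc1l (1.14 ± 0.25) rose. For Taf4b and Fmn2 the PFNA libraries, replicate 5 included (117 and 11.1 CPM), all lay above the controls. That separation was found in 11.9% of all genes tested. Replicate 5 had most of the 35 genes at 0 counts, and which cells the Taf4b and Fmn2 transcripts came from was not tested.

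Markers of other cell types were read in the same libraries. The 10 granulosa markers, all present in both tables, summed to 36100 to 57900 TPM in maturation controls and 15200 to 43800 with PFNA, and 6 of the 10 were called lower and none higher. In the ovulation window they summed to 12500 to 19400 CPM in controls and 11200 to 17700 with PFNA, with 7 called higher and 2 lower. The 7 immune markers summed to 1.57 to 107 CPM in ovulation controls and 156 to 711 with PFNA, without overlap. Among all genes tested, 11.9% had every PFNA library above every control. Of the 7 markers 3 were called higher and none lower, near the 38% of all genes called higher in this window. The log2 fold changes of the 7 immune markers ran from 0.85 to 10.48 with a median of 0.99, so the sum may rest on few of them. In the maturation window they summed to 2.12 to 81.3 TPM in controls and 32.1 to 195 with PFNA, with 2 of 3 tested called higher. The 6 endothelial markers summed to 31.5 to 124 CPM in ovulation controls and 39.2 to 330 with PFNA, with 5 of 6 called higher, and to 3.65 to 48.6 and 8.08 to 50.9 TPM in the maturation window, with none of 3 tested called. The 7 theca and steroidogenic markers summed to 1250 to 3680 CPM in ovulation controls and 496 to 1690 with PFNA. Of these 7, 3 were called higher and 3 lower in that window, with a median log2 fold change of 0.37. In the maturation window the theca markers summed to 455 to 1330 TPM in controls and 340 to 1130 with PFNA. There 1 was called higher and 1 lower. The 7 stroma markers summed to 179 to 2070 CPM in ovulation controls and 1080 to 3240 with PFNA, with 4 called higher and 1 lower. Surface epithelium markers summed to 11 to 27.8 and 24.4 to 79.3 CPM, with 2 of 3 tested called higher and 1 lower. No marker of these types was at 0 in every library of a group. The part of these levels in the oocyte values was not tested.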

How the data were processed

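RNA of mouse ovarian follicles was sequenced in 44 libraries. The members and lists were chosen with earlier results of these data known. For the maturation window the authors deposited TPM (each library sums to 1000000 and 82.3% of values are not whole, as found from the values), and for the ovulation window the authors deposited estimated counts, 14.91% of them not whole, which were rounded. The submitters' processing notes name Partek, Bowtie2 and HISAT2 without roles, and the genome build, annotation and use of strand are not given in the sources used here. Maturation positions matched GENCODE M21 (GRCm38) starts for 99.39% of symbols and ovulation positions for 37.19%, so the gene models differ and levels were not compared across tables. The column taken as maturation control replicate 6 differs from that sample's title by a letter. No maturation control numbered 4 is among the 44 samples.

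The maturation window was tested with limma 3.58.1 (trend, robust) on log2(TPM + 1) on genes whose mean reached 1 TPM, a scale that understates changes of low genes. The ovulation window was tested with edgeR 4.0.16 (quasi-likelihood, robust, TMM, filterByExpr) in R 4.3.3. The difference between windows used limma within each table, with Satterthwaite's degrees of freedom. Tests were two-sided with Benjamini-Hochberg adjustment over all genes tested, and an adjusted p under 0.05 was called. The scripts were tested on simulated data. All 35 members are named, whatever their result, and of the second oocyte list up to 3 genes called in each direction per window with the smallest p, plus Gdf9 and Bmp15. Alternatives were another pseudocount, no filter, median-ratio size factors, DESeq2 1.42.0, limma on CPM, a replicate block and leaving out each library. Libraries of a group were never duplicates: the highest correlation within a group was 0.982, and ovulation pairs differed by more than sampling noise (lowest chi-square over degrees of freedom 7.54).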

Additional observations from a re-analysis of the deposited data

Results flagged for a closer look

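A single library far from the rest of its group was found for 20 of the 35 genes in the 10 maturation PFNA libraries, by Dixon's test at its 95% critical value, which chance passes in about 1 in 20 groups. The genes share the same 10 libraries and many have several values at 0, so these are not independent findings, and Sohlh1, listed at 0 in the other 9 libraries, had to meet the test. In 19 of them it was PFNA replicate 10, which was the highest: Zp2 (24.1 TPM), Oosp1 (6.37 TPM), Nlrp5 (5.16 TPM), Padi6 (44.5 TPM), Nlrp14 (25.1 TPM), Lhx8 (1.54 TPM), Sohlh1 (3.3 TPM), Pou5f1 (4.38 TPM), Obox5 (22.0 TPM), Npm2 (5.97 TPM), H1f8 (67.9 TPM), Zar1 (48.3 TPM), Ddx4 (0.327 TPM), Mos (57.1 TPM), Gpr3 (9.28 TPM), Btg4 (5.55 TPM), Rfpl4 (38.9 TPM), Tcl1 (46.1 TPM) and Bcl2l10 (93.5 TPM). In Nlrp4f it was PFNA replicate 1 (4.01 TPM). With PFNA replicate 10 left out, Btg4 no longer passed the filter and the other 27 genes kept their direction and their call.

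The PFNA effect differed between the windows by a test of the difference itself in 28 genes, each with an adjusted p under 0.05. The ovulation effect minus the maturation effect, on the log2 scale, was above 0 in every gene: Astl (1.49), Bcl2l10 (3.56), Btg4 (1.08), Dazl (1.81), Dppa3 (3), Gpr3 (1.64), H1f8 (4.15), Khdc3 (3.92), Mos (4.07), Nlrp14 (2.68), Nlrp4f (2.65), Nlrp5 (1.44), Nobox (3.43), Npm2 (2.14), Obox5 (2.67), Ooep (3.73), Oog1 (3.57), Oosp1 (2.19), Padi6 (3.16), Pou5f1 (2.16), Rfpl4 (2.47), Tcl1 (2.87), Tle6 (2.37), Uchl1 (1.16), Zar1 (3.90), Zp1 (3.19), Zp2 (2.41) and Zp3 (3.14).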

How the results depend on the processing

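No result changed direction under any alternative run. The median log2 fold change in the maturation window (-2.02) was -3.92 with a pseudocount of 0.1 in place of 1, ran from -2.39 (without PFNA replicate 10) to -1.93 when single libraries were left out, and was -2.39 without PFNA replicates 1 and 2. The 20 genes called higher in the ovulation window became 7 with a replicate block, 9 with limma on log2(CPM + 1) and 29 with that test once PFNA replicate 5 was left out, and 19 to 27 when single libraries were left out of the edgeR fit. The median difference between windows (2.67) was 4.32 with a pseudocount of 0.1 and 3.15 without ovulation PFNA replicate 5. The limma fit without PFNA replicate 5, the fit without PFNA replicates 1 and 2, and the differences with libraries left out were added after seeing the data. Replicate numbers did not pair the libraries: same-numbered deviations correlated by -0.138 to 0.168 over 9 maturation pairs and -0.193 to 0.073 over 11 ovulation pairs, and each library correlated best with its own number in 1 and 0 pairs. With the replicate block 22 genes were called lower in the maturation window, without Dazl, Gpr3, Nlrp5, Rfpl4 and Uchl1, and Btg4 was lost from the 28 differences between windows, leaving 27. Over all genes of the maturation window, 1032 were called higher with the block against 1824 without it. Depth is unknown for TPM, so a value listed at 0 there has no counting limit.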
